A study of Homo sapiens with 6 samples.

Results

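The genes described here are the receptors of fibroblast growth factors (FGFs) and the proteins that act directly beside them in UMUC-14 cells, an established human bladder cancer line. They are the receptors FGFR1, FGFR2, FGFR3 and FGFR4, the receptor-like FGFRL1, the ligand carrier FGFBP1, the co-receptor KLB and the docking adaptors FRS2 and FRS3. They were picked by name, with earlier results of these data known. They make up 9 of the 19361 rows of the array table, each row standing for 1 Entrez gene, and all 9 were bright enough to be tested. The FRS2 row has no symbol in the probe annotation used here and was named through its Entrez ID. Expression was read on Affymetrix U133 Plus 2.0 arrays from 2 groups of 3 arrays. Control cells received the LipofectaminRNAimax transfection reagent and no siRNA. The siFGFR3 cells received an siRNA against FGFR3 for 40 h, and each array stands for a different siRNA, named siFGFR3#35, siFGFR3#36 and siFGFR3#3. All arrays therefore share 1 cell line grown in serum. A control siRNA without a target is not among the labels. The loss of FGFR3 and the introduction of any siRNA thus cannot be told apart, and every siRNA was set against the same 3 controls. The labels leave unsaid whether arrays of a group came from separate cultures, so p-values reflect only how far these samples spread. That spread may be technical in the controls, and in the siFGFR3 group it also holds the differences between siRNAs.

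As background, FGFs bind receptor tyrosine kinases on the cell surface with the help of heparan sulfate, the bound receptors pair, and the docking protein FRS2 is phosphorylated and recruits the adaptors that switch on the RAS and ERK cascade. Urothelial cells and many bladder tumours carry FGFR3, which is often activated in such tumours by a point mutation or a fusion, and UMUC-14 is known as a line with a mutated FGFR3.

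The levels are log2 values after RMA, a procedure that corrects background, equalises the arrays and summarises the probes of each row. Array medians lay between 5.41 and 5.52, and the number of arrays limits the precision. Across tested genes, which are not independent replicates, the control arrays correlated at 0.9978 to 0.9984 and the siFGFR3 arrays at 0.9848 to 0.991. The median SD of a gene was 0.0536 in controls and 0.129 across the siRNAs. Of 14 listed urothelial and epithelial markers, 11 were found by symbol, and KRT8, KRT18 and TP63 were not. All 11 lay above the cut for dim rows at 3.89. They ranged from 4.28 to 12.9 in controls, with the keratin KRT19 the highest. The summed level of these markers was 103 to 104 in controls and 104 to 106 in siFGFR3 cells. Of the 11, 5 rose and 1 fell in the group test described below, where 45.1% of all tested genes passed. UPK2 rose by 1.14, GATA3 by 0.79, KRT19 by 0.27, FOXA1 by 0.19 and UPK1B by 0.15. EPCAM fell by 0.51, and all but KRT19 are named after their values were seen. The dimmest listed markers of leukocytes (PTPRC, 2.15), fibroblasts (LUM, 1.90) and endothelium (KDR, 2.41) were below the cut in controls. Others of their lists lay above it, such as CD3D at 4.86, THY1 at 4.82 and VWF at 4.04. All of these are named after their values were seen. Of those lists 4 of 7, 3 of 7 and 3 of 6 markers lay above it, the highest being CD68 at 5.39, COL1A1 at 5.42 and ESAM at 5.94. Their summed levels were 27.4 to 28.2, 26.3 to 26.8 and 23.3 to 23.7 in controls, against 26.9 to 27.8, 25.9 to 27.1 and 22.8 to 23.8 in siFGFR3 cells. Of the tested markers of these lists, COL1A1 rose by 0.64 (adjusted p = 0.00391), and CD3D and THY1, named after their values were seen, fell by 0.47 (0.00804) and 0.34 (0.0108). The part of the marker changes in the results below was not tested.

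FGFR3, FGFR2 and FGFBP1 changed more than the other members. Their promoter windows are shown because the results turn on these 3 genes. Each window runs from 250 bases before to 50 bases after a RefSeq start in GRCh38.p14, 5′ to 3′ on the gene's strand, and capitals mark GC boxes (GGGCGG on either strand). FGFR3 lies on the plus strand at chr4:1793043-1793342, FGFR2 on the minus strand at chr10:121598395-121598694 and FGFBP1 on the minus strand at chr4:15938691-15938990. Of 5 windows listed for FGFR2, the one with the most GC boxes is shown.
FGFR3: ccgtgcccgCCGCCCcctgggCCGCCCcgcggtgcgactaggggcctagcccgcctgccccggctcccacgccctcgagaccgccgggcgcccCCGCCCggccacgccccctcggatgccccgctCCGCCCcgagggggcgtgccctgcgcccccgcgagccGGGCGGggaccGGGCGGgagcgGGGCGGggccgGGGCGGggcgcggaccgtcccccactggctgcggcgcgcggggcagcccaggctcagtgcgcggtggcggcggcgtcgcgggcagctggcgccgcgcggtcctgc
FGFR2: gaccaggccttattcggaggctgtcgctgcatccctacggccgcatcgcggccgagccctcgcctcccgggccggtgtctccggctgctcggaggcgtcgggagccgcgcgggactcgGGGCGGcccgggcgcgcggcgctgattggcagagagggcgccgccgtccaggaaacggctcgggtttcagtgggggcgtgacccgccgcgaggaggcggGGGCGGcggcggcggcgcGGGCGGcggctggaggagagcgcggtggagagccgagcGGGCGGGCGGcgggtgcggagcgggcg
FGFBP1: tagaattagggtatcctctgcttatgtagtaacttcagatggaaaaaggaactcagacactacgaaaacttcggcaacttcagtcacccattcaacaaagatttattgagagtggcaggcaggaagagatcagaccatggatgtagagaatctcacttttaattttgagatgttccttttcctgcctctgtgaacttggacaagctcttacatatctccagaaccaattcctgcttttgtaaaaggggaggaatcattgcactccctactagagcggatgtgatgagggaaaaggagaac

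The windows shown differ in base composition. GC content was 86.3% for FGFR3, 79.3% for FGFR2 and 42% for FGFBP1, with 8 GC boxes in the first, 5 in the second and 0 in the last. The FGFR2 window was picked for its GC boxes. The FGFR2 windows not shown had 47.3% to 50.7% GC and 0 or 1 GC box each, so the contrast of FGFR2 with FGFBP1 depends on that pick. Of the 9 members, 8 had a window in the RefSeq table, 13 windows in all, of which 5 were of FGFR2. FGFR1 had no window and was not searched. A GC box was in 7 of the 13 (53.8%), against 45% of all 35116 windows. These belonged to 6 of the 8 members: FGFR2, FGFR3, FGFR4, FGFRL1, FRS2 and FRS3. The AP-1 motif TGANTCA was in 0 of the 13, against 7.71% of all windows. The ETS motif CCGGAAG was in 1, that of FRS2, against 10.3% of all windows. All motifs were searched on both strands, the 3 motifs do not contain one another, and neighbouring GC boxes may overlap. These matches describe letters in a window and were not linked to any factor's binding.

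Compared over the group, FGFR3 fell 2.06-fold, the carrier FGFBP1 fell 3.60-fold, FGFR2 rose 2.62-fold and FGFR1 fell 1.19-fold. FGFR4, FGFRL1, KLB, FRS2 and FRS3 did not pass the test. The count for the members is thus 1 higher, 3 lower and 5 not passing, where passing means a Benjamini-Hochberg adjusted p under 0.05 in limma over all 13552 tested genes. Of all tested genes, 45.1% passed in either direction, 20.6% as higher and 24.6% as lower, so the 4 of 9 members that passed are a share near that of all genes. With each array centred on its median, which moved the median of all changes from −0.04 to −0.11, 2312 genes were higher and 4285 lower in place of 2789 and 3329. The groups did not overlap for 5 members and for 60.8% of all tested genes. The median change of the members was −0.13, against −0.04 for all tested genes, and their median absolute change was 0.25, against 0.24.

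**Figure D1:**
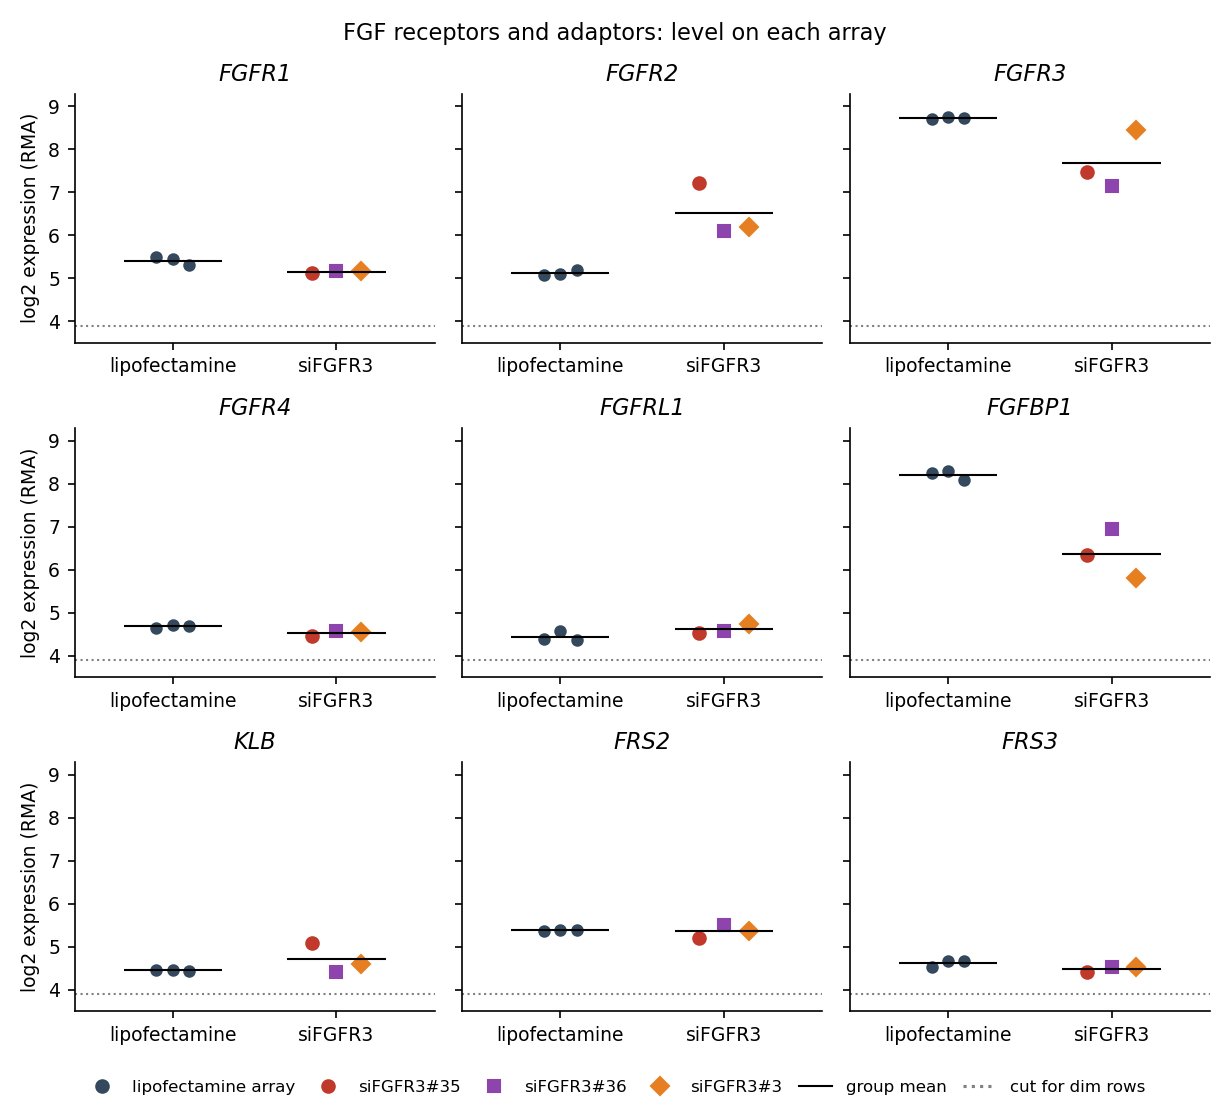
Log2 level of each of the 9 members on each array (y axis, log2 expression after RMA), with the 3 lipofectamine arrays on the left, the 3 siRNA arrays on the right, black lines at group means and a dotted line at the cut for dim rows (3.89). FGFR2 sits above its controls with every siRNA and FGFBP1 below them, while FGFR4, FGFRL1, KLB and FRS3 lie close to the cut.

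The target came first. FGFR3, the main FGF receptor of urothelium, was at 8.70, 8.75 and 8.74 on the lipofectamine arrays, and at 7.47 with siFGFR3#35, 7.14 with siFGFR3#36 and 8.45 with siFGFR3#3. All siRNA arrays lay below all controls, and siFGFR3#3 was close to them. The group difference was −1.04 on the log2 scale (SE 0.30, 95% interval −1.75 to −0.34, adjusted p = 0.0271). Its adjusted p rose above 0.05 when 1 array was left out in 4 of 6 cases, to 0.0727, 0.078 and 0.0814 for lipofectamine replicates 1, 2 and 3 and to 0.0705 for siFGFR3#35. By its mean over all arrays, 83.1% of all rows were dimmer than this one. That share describes array signal and not amounts of transcript, which the probes of different rows do not allow to be compared. In a bulk sample, fewer cells and less RNA per cell cannot be told apart either.

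FGFR2, a close relative of FGFR3 whose IIIb form binds FGF7 and FGF10 in epithelia, was at 5.08, 5.09 and 5.19 in controls. With siFGFR3#35, siFGFR3#36 and siFGFR3#3 it was at 7.23, 6.11 and 6.20. Every siRNA array lay above every control, and siFGFR3#35 stood above the other siRNA arrays. FGFR2 rose by 1.39 (SE 0.28, interval 0.74 to 2.04, adjusted p = 0.00729), from 5.12 ± 0.06 to 6.51 ± 0.62 (SD, n = 3). Of all tested genes, 99.1% had a lower change. A row of this table joins all probes of a gene, so the IIIb and IIIc forms are not told apart.

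FGFR1, the receptor most used by mesenchymal cells, was at 5.50, 5.44 and 5.30 in controls and at 5.13, 5.16 and 5.18 with the siRNAs in the order given above. The siRNA arrays lay close together and below all controls. FGFR1 fell by 0.26 (SE 0.08, interval −0.44 to −0.08, adjusted p = 0.0305). Its pass was lost in 5 of 12 alternatives: without lipofectamine replicate 1 (adjusted p = 0.114) or 2 (0.104), without siFGFR3#35 (0.0591) or siFGFR3#3 (0.0541), and with a variance for each group (0.0862).

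FGFR4, the receptor of FGF19 in liver, was at 4.64, 4.72 and 4.68 in controls and at 4.46, 4.57 and 4.55 with siRNA. The groups did not overlap, but the difference of −0.15 (SE 0.07, interval −0.32 to 0.01) did not pass (adjusted p = 0.113). FGFRL1, which has no kinase domain and acts as a decoy for ligands, was at 4.38, 4.57 and 4.35 in controls and at 4.51, 4.58 and 4.73 with siRNA. Its groups overlapped, and the difference was 0.17 (SE 0.09, interval −0.05 to 0.39, adjusted p = 0.172). FGFR4, FGFRL1, KLB and FRS3 lay 0.63 to 0.71 above the cut for dim rows by their mean over all arrays, and no background signal was at hand to set them against.

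FGFBP1 is a secreted carrier that binds FGFs held in the matrix and brings them to their receptors. It was at 8.24, 8.29 and 8.09 in controls and at 6.35, 6.94 and 5.80 with siFGFR3#35, siFGFR3#36 and siFGFR3#3. Every siRNA array was below every control by more than 1 log2 unit. FGFBP1 fell by 1.85 (SE 0.26, interval −2.45 to −1.24, adjusted p = 0.00211), from 8.21 ± 0.11 to 6.36 ± 0.57 (SD, n = 3). Of all tested genes, 0.103% had a lower change.

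KLB, or β-Klotho, joins FGFR1 or FGFR4 to bind the endocrine ligands FGF19 and FGF21. Its levels were 4.46, 4.47 and 4.44 in controls and 5.10, 4.42 and 4.59 with siRNA. The siFGFR3#35 and siFGFR3#3 arrays lay above the controls and siFGFR3#36 just below them. The group difference of 0.25 (SE 0.17, interval −0.14 to 0.64, adjusted p = 0.246) did not pass. It was 0.052 without siFGFR3#35 and 0.39 without siFGFR3#36.

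The docking proteins FRS2 and FRS3 sit under the membrane on the FGF receptors and pass their signal to GRB2 and SHP2. FRS2 was at 5.36, 5.39 and 5.39 in controls and at 5.21, 5.51 and 5.36 with siRNA, on both sides of the controls. The difference was −0.02 (SE 0.09, interval −0.23 to 0.19, adjusted p = 0.862), and without siFGFR3#35 it turned to 0.054. FRS3 was at 4.52, 4.67 and 4.68 in controls and at 4.41, 4.53 and 4.52 with siRNA, and the groups overlapped. Its difference of −0.13 (SE 0.08, interval −0.32 to 0.05, adjusted p = 0.202) did not pass either.

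**Figure D2:**
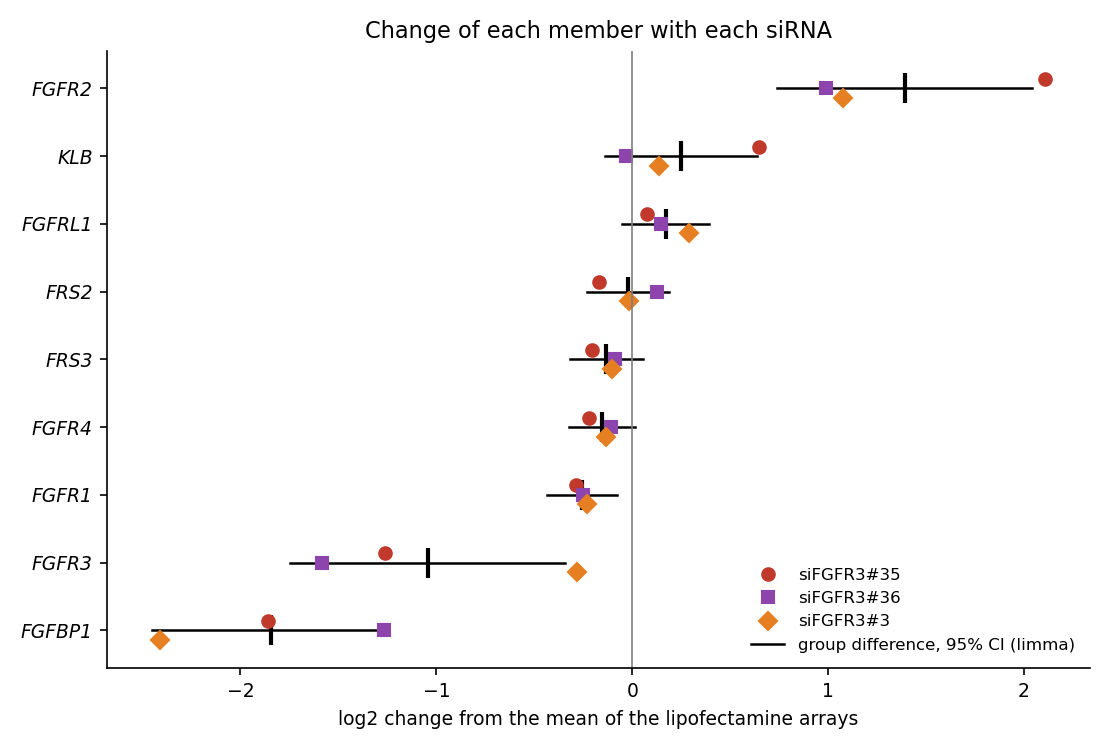
Log2 change of each member from the lipofectamine mean (x axis), ordered by group difference, with 1 marker per siRNA and a black line for the 95% interval of the group difference in limma. The interval lies to the right of 0 for FGFR2 and to the left of it for FGFBP1, FGFR3 and FGFR1.

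**Figure D3:**
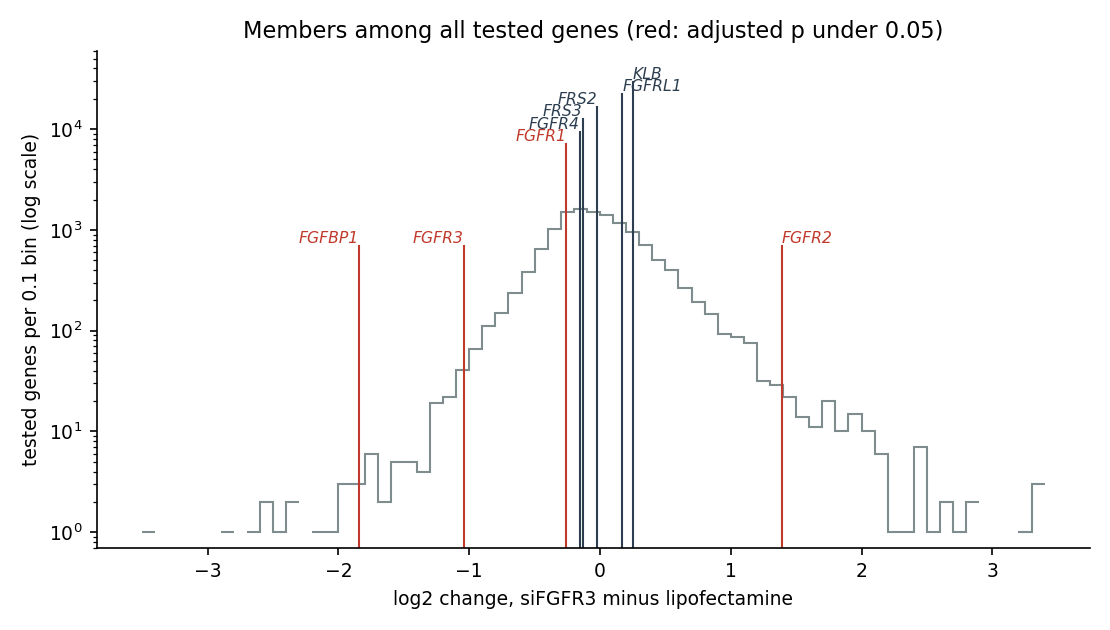
Number of tested genes (y axis, log scale) per 0.1 bin of log2 change, siFGFR3 minus lipofectamine (x axis), with lines at the 9 members, red where the adjusted p is under 0.05. FGFBP1 lies in the far left tail and FGFR2 in the right tail, and FGFR1 falls within the bulk of genes.

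The siRNAs were also compared one by one, with limma fitted to 4 levels (the controls and each siRNA). A single array is assumed there to vary like the controls, so these p-values compare arrays and not conditions. Of all tested genes, 60.7% passed for siFGFR3#35, 49.5% for siFGFR3#36 and 60.2% for siFGFR3#3. Of the 9 members, 5 passed with siFGFR3#35 and 3 with each of the others. FGFR2, FGFR3 and FGFBP1 passed with every siRNA in 1 direction. KLB passed with siFGFR3#35 (0.64, adjusted p = 0.000529), and its changes with siFGFR3#36 and siFGFR3#3 were −0.03 (0.82) and 0.14 (0.297). FGFR1 changed by −0.29 (0.0354), −0.25 (0.0664) and −0.23 (0.0766) with siFGFR3#35, siFGFR3#36 and siFGFR3#3, and siFGFR3#35 differed from the mean of the other siRNAs by −0.044 (adjusted p = 0.812). FGFR1 passed with every siRNA when arrays were centred (adjusted p = 0.00816, 0.0442 and 0.024) and without lipofectamine replicate 3 (0.0118, 0.023 and 0.0252). It passed with no siRNA without the filter on dim rows (0.0606 for siFGFR3#35) or without lipofectamine replicate 1 (0.0871) or 2 (0.0993). With arrays centred on their median, 8 members passed for siFGFR3#35, against 65% of all tested genes, and 4 passed for siFGFR3#36 and 4 for siFGFR3#3, against 50.7% and 63%.

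The siRNAs ranked differently for FGFR3 than for FGFBP1 and FGFR2. FGFR3 signal was at 41.7%, 33.3% and 82.2% of the control mean for siFGFR3#35, siFGFR3#36 and siFGFR3#3. FGFBP1 was at 27.5%, 41.6% and 18.8%, so it was lowest in the array in which FGFR3 was highest. FGFR2 was 4.31-fold, 1.99-fold and 2.11-fold above the control mean.

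Differences between siRNA arrays were then set against each other. The contrasts of a siRNA against the mean of the others passed for 26.5% (siFGFR3#35), 32.2% (siFGFR3#36) and 18.4% (siFGFR3#3) of tested genes, and for 3, 4 and 3 of the 9 members. The pairwise contrasts that follow were added after the values were seen, and passed for 32.1% (siFGFR3#35 minus siFGFR3#36), 18.3% (siFGFR3#35 minus siFGFR3#3) and 26% (siFGFR3#36 minus siFGFR3#3) of tested genes. FGFR2 was higher with siFGFR3#35 than with siFGFR3#36 by 1.12 (adjusted p = 4.74e-05) and than with siFGFR3#3 by 1.03 (0.000145), and the latter arrays differed by −0.087 (0.593). FGFBP1 was higher with siFGFR3#36 than with siFGFR3#3 by 1.14 (4.5e-05), and with siFGFR3#35 it lay between them, 0.59 below siFGFR3#36 and 0.55 above siFGFR3#3 (adjusted p = 0.00142 and 0.00402). KLB was higher with siFGFR3#35 by 0.68 than with siFGFR3#36 (0.00381) and by 0.51 than with siFGFR3#3 (0.0258). FGFR3 was 1.30 lower with siFGFR3#36 than with siFGFR3#3 (8.15e-07).

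Interferon-induced genes moved with the siRNA too, and are given as context. The median change of the 17 tested genes of this list was 1.22, 3.14 and 0.63 with siFGFR3#35, siFGFR3#36 and siFGFR3#3, and their summed level was 118 to 119 in controls against 141, 177 and 130. In the group test 9 of the 17 rose and 0 fell, where 20.6% of all tested genes passed as higher. In either direction 52.9% of the list passed, against 45.1% of all tested genes. The median group change of the list was 1.69, against −0.04 for all tested genes. Without lipofectamine replicates 1, 2 and 3 the genes that rose numbered 2, 3 and 2. Over all tested genes, 1713 passed as higher without replicate 1, in place of 2789. Without siFGFR3#35 4 of the list rose, without siFGFR3#36 13 rose and 1 fell, and without siFGFR3#3 12 rose. The part of the interferon response in the changes of the members was not tested. The smallest FGFBP1 change was in the array with the highest interferon median, siFGFR3#36, and the largest was in the array with the lowest, siFGFR3#3. KLB and FGFR2 were highest with siFGFR3#35 and not with siFGFR3#36.

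**Figure D4:**
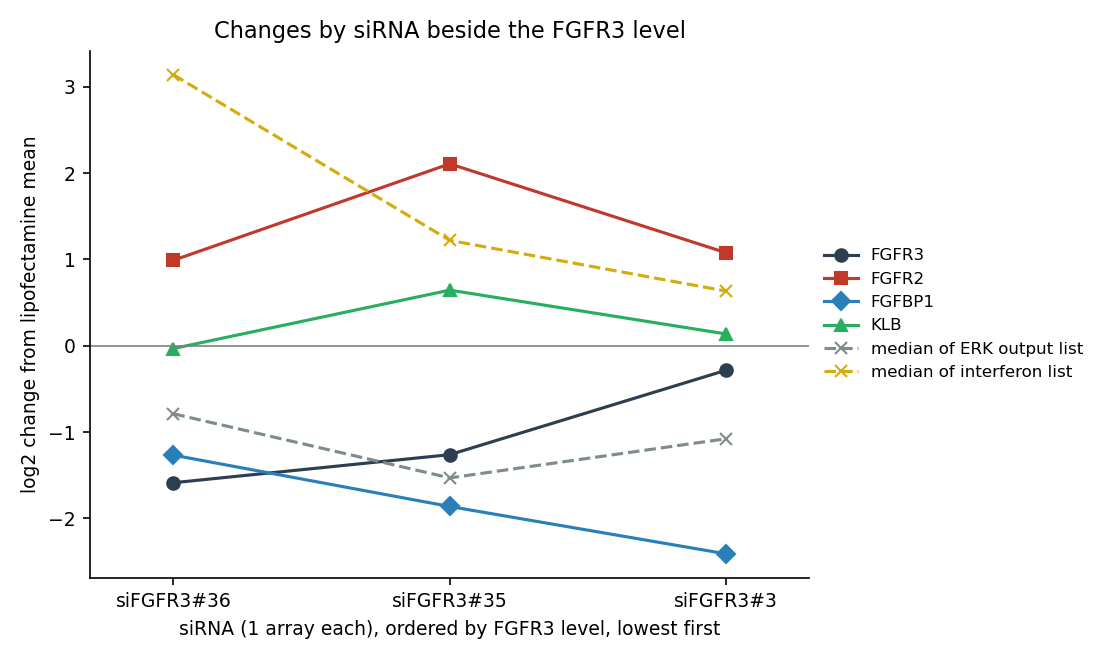
Log2 change from the lipofectamine mean (y axis) of FGFR3, FGFR2, FGFBP1 and KLB, with the medians of the ERK output and interferon lists as dashed lines, for the 3 siRNAs ordered by FGFR3 level (x axis, 1 array each). FGFBP1 is lowest with siFGFR3#3, where FGFR3 is highest, and the interferon median is highest with siFGFR3#36.

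The other genes of the pathway were read from lists written with earlier results of these data known. Of 22 FGF ligands, all with a row, 5 were bright enough to be tested (FGF6, FGF11, FGF17, FGF22 and FGF23) and 17 were dim. FGF22 fell by 0.53 (SE 0.15, adjusted p = 0.0296), from 5.02 to 4.49, and the other 4 did not pass. Thus 20% of the tested ligands passed, against 45.1% of all tested genes. FGF22 no longer passed without siFGFR3#35 (0.0744) or siFGFR3#3 (0.0682), or with a variance for each group (0.11). A dim row is not shown to be an absent transcript.

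Of 12 tested co-receptors and membrane partners, 2 rose, 2 fell and 8 did not pass. This makes 33.3% passing, against 45.1% of all tested genes. FLRT3, a membrane protein that associates with FGF receptors, was at 5.95, 6.05 and 5.93 in controls and at 8.10, 7.23 and 8.08 with siFGFR3#35, siFGFR3#36 and siFGFR3#3, and it rose by 1.83 (SE 0.23, adjusted p = 0.00144). The glypican GPC3 rose by 1.10 (SE 0.20, adjusted p = 0.0051) and went from 6.98 to 8.08. The syndecan SDC2, a heparan sulfate carrier at the cell surface, fell by 0.86 (SE 0.08, adjusted p = 0.000636), from 5.30 to 4.44. FGFBP3, a relative of FGFBP1, fell by 0.68 (SE 0.13, adjusted p = 0.00667), from 4.93 to 4.25. Without siFGFR3#36, 4 members of this list rose.

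Of 12 tested enzymes that build or trim heparan sulfate, 1 rose, 3 fell and 8 did not pass. The 33.3% that passed are below the 45.1% of all tested genes. The sulfatase SULF2 rose by 0.74 (SE 0.24, adjusted p = 0.0412), the sulfotransferase HS3ST1 fell by 0.55 (SE 0.15, 0.0224), the polymerase subunit EXT1 fell by 0.33 (0.0315) and HS6ST2 fell by 0.26 (0.0363). Without any 1 of the 3 lipofectamine replicates, 0 of these enzymes rose and 0 fell. Fewer genes passed in such settings: without replicate 1, 1713 of all tested genes passed as higher, in place of 2789. Without siFGFR3#35, siFGFR3#36 or siFGFR3#3 in turn, 0, 2 and 0 rose and 2, 3 and 1 fell.

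Of 27 listed proteins that act next to the receptor, 20 were found by symbol, and all 20 were tested. Of these, 4 rose, 3 fell and 13 did not pass, so 35% passed, against 45.1% of all tested genes. The exchange factor SOS2, which loads RAS, rose by 0.78 (SE 0.10, adjusted p = 0.00172), the ubiquitin ligase CBLB by 0.72 (SE 0.17, 0.0125) and the adaptor GAB1 by 0.42 (SE 0.11, 0.0192). The kinase MAP2K1 (MEK1) fell by 0.36 (SE 0.08, 0.0121). The others that passed, chosen after their values were seen, were PIK3R1, which rose by 0.23 (0.0297), and PTPN11 (SHP2) and GRB2, which fell by 0.25 (0.0217) and 0.17 (0.0498). Without lipofectamine replicates 1, 2 and 3, 2, 2 and 2 of these genes rose and 1, 0 and 1 fell, and without siFGFR3#36, 5 rose and 6 fell. Calls were fewer over all tested genes too: without replicate 1, 1713 passed as higher, in place of 2789. PIK3R1, PTPN11 and GRB2 each lost their pass without any 1 lipofectamine replicate (adjusted p = 0.0643 to 0.158), GAB1 without replicate 1 (0.0702) or 2 (0.0675), MAP2K1 without replicate 2 (0.0523) and CBLB without replicate 3 (0.0528).

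Output genes of the ERK cascade went down. Of 15 tested, 12 fell, 1 rose and 2 did not pass, where 45.1% of all tested genes passed. The median change was −1.07, against −0.04 for all genes. It was −1.53, −0.79 and −1.08 with siFGFR3#35, siFGFR3#36 and siFGFR3#3. The phosphatase DUSP6, a feedback brake on ERK, fell by 2.44 (adjusted p = 0.00173), the ETS factor ETV4 fell by 1.95 (0.000626), the inhibitor SPRY4 fell by 1.41 (0.000785) and ETV1 fell by 1.06 (0.00118). The ETV1 mean in siFGFR3 cells, 3.66, was below the cut for dim rows. The member that rose, named after its values were seen, was the early transcription factor EGR1, by 0.82 (0.00632).

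Among 20 tested receptor tyrosine kinases of other families, 6 rose, 1 fell and 13 did not pass. The 35% that passed are below the 45.1% of all tested genes. The ERBB3 receptor, a partner of ERBB2, rose by 1.23 (SE 0.11, adjusted p = 0.000587), ERBB2 by 0.73 (SE 0.10, 0.00173), the collagen receptor DDR1 by 0.67 (SE 0.09, 0.00173) and PTK7, a kinase-dead co-receptor of the WNT pathway, by 0.58 (SE 0.06, 0.00104). The control mean of ERBB2, 4.51, was close to the cut for dim rows at 3.89, and that of ERBB3 was 7.55. Outside the rule for naming, INSR rose by 0.74 (0.00374) and IGF1R by 0.50 (0.018), and NTRK3 fell by 0.29 (0.0358). With 1 array left out, 5 to 8 rose and 0 to 2 fell. IGF1R did not pass without lipofectamine replicate 1 (0.0676) or 3 (0.0634), nor NTRK3 without lipofectamine replicate 2 (0.116) or 3 (0.115), siFGFR3#35 (0.0823) or siFGFR3#3 (0.0863).

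**Figure D5:**
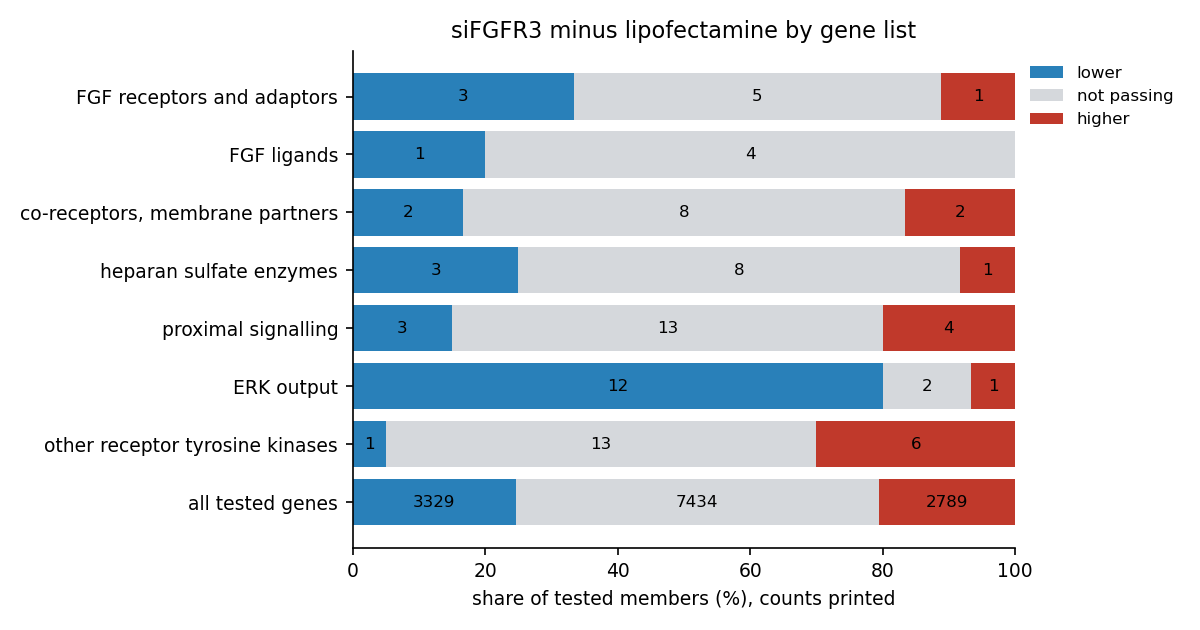
Share of the tested members of each gene list (x axis, percent) that passed as lower (blue), passed as higher (red) or did not pass (grey) in siFGFR3 minus lipofectamine, with counts in the bars. ERK output is mostly lower (12 of 15), against 3 of 9 FGF receptors and adaptors and 3329 of 13552 tested genes.

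The genes whose changes with the 3 siRNAs lay nearest to those of FGFR3, FGFR2 and FGFBP1 were found by the Euclidean distance of the 3 log2 changes. Nearest to FGFR3 were IL1A (0.519), CIP2A (0.557), LAPTM5 (0.591) and MIR17HG (0.639). Nearest to FGFR2 were ANXA3 (0.190), BDH2 (0.265), TMEM139 (0.303) and BLNK (0.329). Nearest to FGFBP1 were ETV4 (0.387), LRP8 (0.606), ETV5 (0.637) and CCDC86 (0.693). ANXA3 rose by 2.14, 1.14 and 0.97 with siFGFR3#35, siFGFR3#36 and siFGFR3#3, where FGFR2 rose by 2.11, 0.99 and 1.08. By Pearson correlation over the 6 arrays the closest genes were ITGA6 for FGFR3, AAMDC for FGFR2 and HJURP for FGFBP1, and 0 of 4 genes were shared between the measures for each member. The 6 arrays form 2 separate groups and the changes share their controls, so these distances only describe likeness in this table.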

How the data were processed

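Total RNA (100 ng) of UMUC-14 cells was labelled and hybridised to 6 arrays. The deposited log2 values came from RMA and affy, run by the authors per the submitters' processing notes; versions are not stated. Rows are named by Entrez gene, and the probe grouping and build behind them are not given in the labels. Of 19361 rows, 18669 had 1 symbol in the probe annotation, updated through RefSeq, and 692 had none. Listed genes other than the members were found by symbol only. This gave 18 of 19 co-receptors and membrane partners, 15 of 17 heparan sulfate enzymes and 20 of 27 proximal signalling genes. It gave 35 of 36 other receptor tyrosine kinases, 17 of 19 interferon genes and 7 of 8 leukocyte markers. Whether the missing genes are among the rows without a symbol was not checked. Rows were ranked by their mean over all arrays, and the dimmest 30% (5809) were left out. limma 3.58.1 in R 4.3.3 (lmFit, eBayes with a trend) was fitted to the remaining 13552 rows, two-sided, with Benjamini-Hochberg adjustment, first over the groups and then with 4 levels (controls and each siRNA). A single gene cannot reach a p below 0.1 in an exact permutation test of 3 arrays against 3. Errors are the SD of the single arrays of a group, given beside its mean, and the SE of differences. The group SE holds the spread between siRNAs. The scripts were tested on simulated data.

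The members and all gene lists (FGF ligands, co-receptors and membrane partners, heparan sulfate enzymes, proximal signalling, ERK output, other receptor tyrosine kinases, interferon response, cell type markers) were chosen with earlier results of these data known. Named were all members, up to 4 passing genes of each pathway list by smallest adjusted p, the brightest marker of each cell type list, and the 4 genes nearest in pattern to FGFR3, FGFR2 and FGFBP1. Alternatives were no filter, a filter of 50%, no trend, robust eBayes, a variance for each group, centred arrays, the 4-level model, leaving out each array and, chosen after seeing the data, a block of title numbers. The labels give no batch.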

Additional observations from a re-analysis of the deposited data

Results flagged for a closer look

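Members that differed between siRNAs are listed here by the contrast of 1 siRNA array against the mean of the other siRNA arrays (log2 scale, 4 levels fitted with limma); each compares single arrays. FGFR2 was 1.07 higher with siFGFR3#35 (SE 0.088, adjusted p = 3.39e-05), and its contrast was −0.60 with siFGFR3#36 (0.00078) and −0.47 with siFGFR3#3 (0.00535). FGFR3 was 1.14 higher with siFGFR3#3 (SE 0.053, adjusted p = 9.29e-07), and its contrast was −0.33 with siFGFR3#35 (0.00178) and −0.81 with siFGFR3#36 (6.62e-06). FGFBP1 was 0.87 higher with siFGFR3#36 (SE 0.084, adjusted p = 7.11e-05) and its contrast was −0.85 with siFGFR3#3 (0.000154). KLB was 0.59 higher with siFGFR3#35 (SE 0.115, adjusted p = 0.00457) and its contrast was −0.42 with siFGFR3#36 (0.0191). The direction of the change from control was the same with all siRNAs for FGFR2, FGFR3 and FGFBP1, and for KLB it was 0.64, −0.03 and 0.14 with siFGFR3#35, siFGFR3#36 and siFGFR3#3. The contrasts of a gene depend on one another, because a siRNA array that stands apart also enters the mean for the others. Between siFGFR3#36 and siFGFR3#3 directly, FGFR2 differed by −0.087 and KLB by −0.17. Groups of 3 arrays were too small for the check of single outlying arrays.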

How the results depend on the processing

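FGFR2 and FGFBP1 passed in 13 of 13 alternatives, FGFR3 in 9 of 13 and FGFR1 in 7 of 12. Of the changes of the members under these alternatives, the block below left out, 100 kept their direction and their side of the threshold, 9 lost their pass, 1 gained one (KLB, adjusted p = 0.0153 in the 4-level model) and 1 turned sign (FRS2, 0.054 without siFGFR3#35, and −0.094 to 0.054 with each array left out). With 1 array left out, genes passing as higher numbered 1672 to 3591 and as lower 1985 to 3672, and members passing as lower numbered 1 to 3. In the 4-level model 4407 genes and 2 members passed as higher. With arrays centred, 8 members and 65% of all tested genes passed for siFGFR3#35. The causes were not tested. The titles end in the numbers 1, 2 and 3 for the controls and 2, 1 and 1 for siFGFR3#35, siFGFR3#36 and siFGFR3#3, and nothing says that a number marks a shared culture or day. Deviations of same-numbered arrays from their group means correlated at −0.023 to 0.027, and those of differently numbered arrays over the same range. Each siRNA array holds its own siRNA, so these values cannot tell whether the numbers mark pairs. The main test took no pairs because the labels state none. With the number as a replicate block, an alternative chosen after seeing the data, 1348 genes passed as higher and 1435 as lower, and 1 member each way, FGFR2 and FGFBP1; the fit left 2 residual degrees of freedom. Array data give no depth. Precision is limited by 3 arrays per group and 1 per siRNA.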

Other observations

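KL, which encodes α-Klotho, the co-receptor of FGF23, was left out as dim and is named here after its values were seen. Its log2 level was 2.86, 2.27 and 2.53 in controls and 4.60, 3.44 and 4.0 with siFGFR3#35, siFGFR3#36 and siFGFR3#3. All siRNA arrays lay above all controls, and siFGFR3#35 was the highest, as it was for KLB. Without the filter on dim rows the difference was 1.46 (SE 0.28, adjusted p = 0.00785 in limma). All controls and siFGFR3#36 were below the cut for dim rows at 3.89, so the size of this difference is uncertain.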
